A study of Mus musculus with 18 samples.

Results

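The genes described here are 30 mouse genes of cholesterol and fatty acid synthesis, named in a list of SREBP targets and matched by symbol among the 37224 genes of the count table. All 30 were found, and all 30 passed the filter on low counts in every fit. They comprise 7 enzymes that lead from acetyl-CoA to farnesyl diphosphate (Acat2, Hmgcs1, Mvk, Pmvk, Mvd, Idi1, Fdps), 3 enzymes from squalene to lanosterol (Fdft1, Sqle, Lss) and 9 from lanosterol to cholesterol (Cyp51, Tm7sf2, Lbr, Msmo1, Nsdhl, Hsd17b7, Ebp, Sc5d, Dhcr7). A further 4 are regulators or carriers of sterol (Srebf1, Srebf2, Insig1, Stard4), and 7 make or desaturate fatty acids (Acly, Acaca, Fasn, Scd1, Scd2, Fads1, Fads2).

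RNA was measured by sequencing of polyadenylated transcripts in 6 groups of 3 libraries each, all made from cells that had been differentiated in culture out of mouse embryonic stem cells (strain C57BL/6). Of the groups, 4 were neural progenitors (NPs): NPs expressing Hoxb1 and given SAG, NPs given SAG without Hoxb1, NPs expressing Hoxb1 without SAG, and NPs with neither, called untreated NPs here. SAG is an agonist of Smoothened, the membrane protein that relays hedgehog signals. Both groups labelled as expressing Hoxb1 were given doxycycline and both groups not expressing it were not, so that Hoxb1 and doxycycline cannot be told apart. The other groups were neuromesodermal progenitors (NMPs), cells that can form spinal cord or paraxial mesoderm, of Hoxb1-null and of wild-type genotype. The series asks what Hoxb1, an anterior Hox transcription factor, does in both kinds of progenitor. The line or clone behind each group, the promoter that drives Hoxb1, and whether the 3 libraries of a group are separate cultures are not stated in the sources used here. The p-values therefore measure the spread between these libraries, which may be technical.

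Cholesterol is built from acetyl-CoA through mevalonate, farnesyl diphosphate, squalene and lanosterol. The genes of this route are switched on together by SREBP-2, the product of Srebf2, a transcription factor that is held in the endoplasmic reticulum by SCAP and INSIG proteins while sterol is plentiful and released to the nucleus when sterol is low. SREBP-1, the product of Srebf1, acts mainly on genes of fatty acid synthesis. In the neural tube, cholesterol is known both as a membrane lipid and as a partner of hedgehog signalling, since hedgehog ligands carry a covalently attached cholesterol and Smoothened binds sterols.

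Total counts per library were 22610407 to 24488882 in NPs with Hoxb1 and SAG, 22682012 to 26974315 with SAG alone, 13301476 to 14505711 with Hoxb1 alone and 13589876 to 13976829 in untreated NPs. They were 16836409 to 19136064 in Hoxb1-null and 16523276 to 21141058 in wild-type NMPs. The labels number the libraries 2533 to 2538 for NPs with SAG, 7390 to 7395 for NPs without it and 8085 to 8090 for NMPs. Each range holds both Hoxb1 states, so the Hoxb1 comparisons stay within a range, while the SAG comparisons, the difference of Hoxb1 effects and the comparison of NPs with NMPs run across ranges and cannot be told apart from them. Hoxb1 itself averaged 591 ± 21.2 CPM (counts scaled to library size; mean ± SD, n = 3 here and below) with Hoxb1 and SAG against 0.459 ± 0.0662 CPM with SAG alone, 323 ± 16 CPM with Hoxb1 alone against 0.358 ± 0.288 CPM in untreated NPs, and 15.3 ± 0.844 CPM in null against 254 ± 16.1 CPM in wild-type NMPs. Of the hedgehog targets Ptch1 and Gli1, Ptch1 was higher with SAG than without, both without Hoxb1 (log2 fold change 1.15, SE 0.0405, edgeR adjusted p = 6.16e-19) and with it (1.62, adjusted p = 6.63e-22), while Gli1 was called with Hoxb1 (1.29, adjusted p = 9.04e-07) and not without it (−0.14, adjusted p = 0.161). Null NMP replicate 3 and replicate 1 of the NPs with Hoxb1 and SAG stood apart from their groups: pairs that held the first had a chi-square of counts of 4.77 and 3.72 per gene, where the remaining null pair had 2.24, and pairs that held the second had 3.53 and 2.33, where the remaining pair had 1.47. Untreated NP replicate 1 did so to a lesser degree, with 1.75 and 2.3 where the remaining pair had 1.46. Its summed level of the 30 genes was 6175 CPM, against 5793 and 5767 CPM in replicates 2 and 3.

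Defining markers set NPs and NMPs apart as labelled. The 7 NMP markers summed to 1487 to 1612 CPM in null and 1637 to 1807 CPM in wild-type NMPs, and to between 393 and 679 CPM in the NP libraries. The neural progenitor gene Sox1 averaged 99.4 CPM with Hoxb1 and SAG, 207 with SAG alone, 205 with Hoxb1 alone and 280.1 in untreated NPs, against 0.597 in null and 0.338 in wild-type NMPs. The 5 neural progenitor markers summed to 786 to 832 CPM with Hoxb1 and SAG, 949 to 983 with SAG alone and 1211 to 1217 with Hoxb1 alone. They summed to 1241 to 1359 CPM in untreated NPs, 340 to 354 in null and 322 to 350 in wild-type NMPs. In the groups with SAG, mesenchyme markers summed to more, 2059 to 2259 CPM with Hoxb1 and 2087 to 2125 CPM without. Markers of other cell types differed between the NP groups, and their part in the results below was not tested. Markers of hepatocytes or visceral endoderm summed to 2.96 CPM or less in every library. In bulk libraries, fewer cells of a type and less RNA per cell cannot be told apart.

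Promoter sequence of the members is shown first, because the shared response of these genes is classically tied to a sterol regulatory element (SRE) read by SREBP together with binding sites for NF-Y (the CCAAT box) and Sp1 (the GC box). RefSeq windows from 250 bases before to 50 after the annotated start (build GRCm38.p6) were available for 23 of the 30 genes, and the letters searched on both strands were TCACNCCAC for the SRE, CCAAT and GGGCGG. Matches of different motifs were counted separately, whether or not they shared bases. CCAAT was found in 20 of the 23 genes (87%), against 41.1% of all genes with a window and 43% of those tested in NPs. GGGCGG was likewise found in 20 of 23 (87%), against 38.2% of all and 68.6% of tested genes. TCACNCCAC was found in 1 of 23 (4.35%), against 1.44% of all genes. That gene was Hmgcs1, with TCACCCCAC from 137 to 129 bases before the start. A match is a description of letters and not a site, and the window is short and the SRE letters strict. The starts are those of RefSeq and differ for some genes from the deposited gene coordinates given below. The Fasn window, for 1, lies wholly outside the deposited gene. The windows of Hmgcs1 (chr13:119690101-119690400, plus strand), Insig1 (chr5:28071162-28071461, plus strand), Lss (chr10:76531355-76531654, plus strand), Idi1 (chr13:8885356-8885655, plus strand), Nsdhl (chrX:72918271-72918570, plus strand) and Fasn (chr11:120824498-120824797, minus strand) follow, from genes of each role on which the results turn, read 5′ to 3′ on the gene's strand, with capitals for the SRE and CCAAT letters on either strand (ATTGG is CCAAT on the other strand).
Hmgcs1: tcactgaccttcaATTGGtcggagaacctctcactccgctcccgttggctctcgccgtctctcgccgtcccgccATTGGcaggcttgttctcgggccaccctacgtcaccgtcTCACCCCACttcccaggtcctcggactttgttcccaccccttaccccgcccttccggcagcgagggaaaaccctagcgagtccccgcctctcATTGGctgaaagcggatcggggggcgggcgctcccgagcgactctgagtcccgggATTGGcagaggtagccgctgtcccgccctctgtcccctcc
Insig1: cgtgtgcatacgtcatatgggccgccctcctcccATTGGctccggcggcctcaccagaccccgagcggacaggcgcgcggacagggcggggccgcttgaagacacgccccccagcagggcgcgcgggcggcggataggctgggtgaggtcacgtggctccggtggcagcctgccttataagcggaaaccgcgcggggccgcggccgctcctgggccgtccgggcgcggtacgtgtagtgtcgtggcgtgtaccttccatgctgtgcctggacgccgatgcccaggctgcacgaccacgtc
Lss: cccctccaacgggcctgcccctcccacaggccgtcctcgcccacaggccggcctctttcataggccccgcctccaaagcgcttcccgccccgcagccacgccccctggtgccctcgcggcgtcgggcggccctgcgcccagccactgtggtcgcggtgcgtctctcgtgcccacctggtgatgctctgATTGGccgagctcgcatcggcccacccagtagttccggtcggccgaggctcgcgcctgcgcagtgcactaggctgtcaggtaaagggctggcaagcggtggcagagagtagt
Idi1: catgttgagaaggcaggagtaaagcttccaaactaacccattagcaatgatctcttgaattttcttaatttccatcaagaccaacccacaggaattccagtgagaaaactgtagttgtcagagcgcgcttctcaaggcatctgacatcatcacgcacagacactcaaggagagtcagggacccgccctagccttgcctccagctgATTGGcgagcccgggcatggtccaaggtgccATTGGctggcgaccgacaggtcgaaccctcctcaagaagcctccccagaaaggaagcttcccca
Nsdhl: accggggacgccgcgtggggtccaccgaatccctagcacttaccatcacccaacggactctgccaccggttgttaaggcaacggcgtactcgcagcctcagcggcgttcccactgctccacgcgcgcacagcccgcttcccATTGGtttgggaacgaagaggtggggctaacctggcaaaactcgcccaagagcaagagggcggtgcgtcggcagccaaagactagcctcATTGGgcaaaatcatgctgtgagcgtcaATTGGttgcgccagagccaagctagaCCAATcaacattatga
Fasn: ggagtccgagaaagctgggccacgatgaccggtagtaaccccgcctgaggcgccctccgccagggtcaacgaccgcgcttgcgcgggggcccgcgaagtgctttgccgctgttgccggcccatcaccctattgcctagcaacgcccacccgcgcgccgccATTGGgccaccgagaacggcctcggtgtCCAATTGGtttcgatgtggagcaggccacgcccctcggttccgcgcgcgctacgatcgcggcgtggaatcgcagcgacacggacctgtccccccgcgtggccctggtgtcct

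Together the 30 genes took between 0.591% and 1.04% of the counts of a group. Their summed level was 10446 ± 238 CPM in NPs with Hoxb1 and SAG, 8446 ± 227 CPM with SAG alone, 8468 ± 29.6 CPM with Hoxb1 alone and 5912 ± 229 CPM in untreated NPs, against 8309 ± 202 CPM in null and 8819 ± 53.3 CPM in wild-type NMPs. NPs with Hoxb1 and SAG thus had the highest summed level and untreated NPs the lowest, while the groups with SAG alone and Hoxb1 alone differed by less than the spread between their libraries. The width of the difference in these sums varied with the role, but a sum is weighted to the genes with the highest levels. Between NPs with both factors and untreated NPs, the summed level differed 3.01-fold for the enzymes up to farnesyl diphosphate, 2.46-fold from squalene to lanosterol, 2.06-fold from lanosterol to cholesterol, 1.57-fold for the fatty acid genes and 1.44-fold for the regulators. Genes within a role differed widely. The ratio of means ran from 1.44 (Pmvk) to 5.48 (Idi1) among the enzymes up to farnesyl diphosphate. Among the regulators and carriers it was 0.989 for Srebf1, 1.31 for Srebf2, 2.75 for Stard4 and 3.33 for Insig1.

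**Figure D1:**
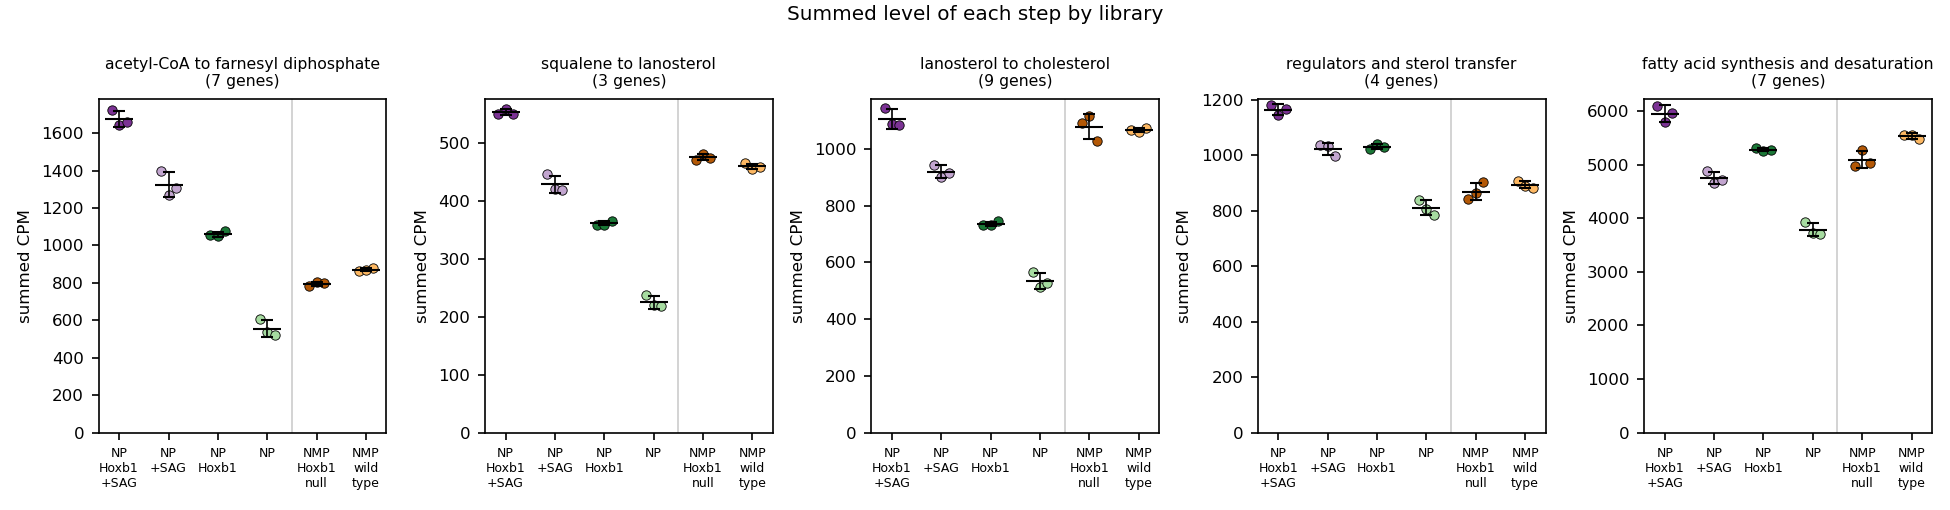
Summed CPM (vertical axis, from 0) of the members of each role in every library (points), with the mean and SD of 3 libraries per group (bars), and groups along the horizontal axis. The enzymes up to farnesyl diphosphate summed to 1675 CPM with Hoxb1 and SAG and to 556 CPM in untreated NPs, and the regulators to 1164 CPM and 811 CPM.

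On the scale of TPM, a level per length of transcript, Scd2, a stearoyl-CoA desaturase that makes monounsaturated fatty acids, had the highest level of the 30 in every group, with 1695 TPM with Hoxb1 and SAG and 1114 TPM in untreated NPs. Hmgcs1, which condenses acetyl-CoA with acetoacetyl-CoA, and Acly, which makes cytosolic acetyl-CoA from citrate, were among the 5 highest in every group. Idi1, the isomerase of isopentenyl diphosphate, had the lowest level in every group, 8.81 TPM with Hoxb1 and SAG and 1.67 TPM in untreated NPs. Its libraries of untreated NPs held 19 to 31 counts each, so its fold changes against them are less precise. Idi1 and Idi2, Acat2 and Acat3, and Scd1 and Scd2 are near paralogs, and how reads that map to several places were counted is not stated in the sources used here, so the levels of these genes are uncertain to that extent. In the deposited annotation, exons of Fdft1 shared 767 bases (26.8% of its exon length) with Ctsb on the other strand, and exons of Tm7sf2 shared 532 bases (15.3%) with Vps51 on the same strand. Smaller overlaps were found for Srebf1, Lss and Scd2.

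Among the NP groups, 21 of the 30 genes had 1 order of mean levels, with Hoxb1 and SAG highest, then SAG alone, then Hoxb1 alone, and untreated NPs lowest. For 19 of these 21, all but Mvk and Pmvk, the libraries of neighbouring groups did not overlap. NPs with both factors had the highest mean for 25 of the 30 genes, and untreated NPs the lowest for 28. Mvd, Srebf2, Acly and Fads1 had higher means with Hoxb1 alone than with SAG alone, though the libraries of Mvd and Fads1 overlapped. Fads2 was highest with SAG alone. Lbr had nearly equal means with SAG alone (198.5 CPM) and with both factors (198.3 CPM), and its libraries overlapped between them. The exceptions at the bottom of the order were Srebf1, whose libraries overlapped between all neighbouring groups, and Acaca, the first enzyme committed to fatty acid synthesis, which was lowest with both factors. Fasn was highest with Hoxb1 alone.

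The first comparison asked what Hoxb1 did in NPs that were given no SAG. With Hoxb1, genes of every role were higher: 27 of the 30 passed the test as higher and 0 as lower, with edgeR's quasi-likelihood test and Benjamini-Hochberg adjustment over all 16238 genes tested at a threshold of 0.05. At an unadjusted p under 0.05, 29 were higher and 0 lower in edgeR, and DESeq2 also called 27 higher and 0 lower. Of all genes tested, 24.1% were called higher and 22.1% lower. The median log2 fold change of the 30 was 0.49, against 0.0031 over all tested genes, and 13 of the 30 were called and at least 1.5-fold higher, against 5.65% of all genes. For 28 of the 30, the libraries did not overlap between the groups, against 53.5% of all genes. By role, 6 of 7 enzymes up to farnesyl diphosphate were called higher (median 0.92), 3 of 3 from squalene to lanosterol (0.65), 8 of 9 from lanosterol to cholesterol (0.47), 3 of 4 regulators and carriers (0.65) and 7 of 7 fatty acid genes (0.28). Pmvk, Lbr and Srebf1 did not pass the test.

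Of the enzymes up to farnesyl diphosphate, Hmgcs1 (ENSMUSG00000093930, mm10 chr13:119690462-119708086, plus strand) had 701, 705 and 733 CPM with Hoxb1, against 389, 329 and 323 CPM without it (log2 fold change 1.05, SE 0.0633, edgeR adjusted p = 8.46e-08). Idi1 (ENSMUSG00000058258, mm10 chr13:8885501-8892451, plus strand) had 4.29, 2.97 and 3.73 CPM with Hoxb1, against 2.21, 1.87 and 1.33 CPM without (1.04, SE 0.2, adjusted p = 3.31e-05). Every library with Hoxb1 was above every library without it for both genes. Fdps, which joins isoprene units to farnesyl diphosphate, had 60.3, 58.9 and 53.3 CPM against 28.3, 32.7 and 28.2 CPM without Hoxb1 (0.96, adjusted p = 7.52e-12). Acat2 and Mvd, which open the route and make isopentenyl diphosphate, were 1.89-fold and 1.74-fold higher, while Pmvk (log2 fold change 0.12, adjusted p = 0.0887) had overlapping libraries.

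Along the sterol part of the route, Lss (ENSMUSG00000033105, mm10 chr10:76531588-76557138, plus strand), the synthase that closes the lanosterol rings, had 137, 134 and 139 CPM with Hoxb1 and 72.6, 67.4 and 65.3 CPM without (log2 fold change 1.01, SE 0.0429, edgeR adjusted p = 7.64e-23). Sqle, the epoxidase before it, had 135, 135 and 135 CPM with Hoxb1 and 104, 97 and 97.4 CPM without (0.45, adjusted p = 5.42e-13). The sets of libraries stood apart for both, but the difference in Sqle was the smaller. Dhcr7, the last reductase of the main route, had 109.6, 111 and 111 CPM with Hoxb1 against 60.5, 57.7 and 48.5 CPM without (1.00, adjusted p = 2.2e-15). The other called enzymes from lanosterol to cholesterol had log2 fold changes between 0.32 (Tm7sf2) and 0.81 (Nsdhl). Lbr, which also anchors lamin B, did not pass (0.072, adjusted p = 0.0858).

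Among the regulators, Insig1 (ENSMUSG00000045294, mm10 chr5:28071363-28078662, plus strand), which holds SREBP in the endoplasmic reticulum and is itself an SREBP target, had 99.5, 106 and 109 CPM with Hoxb1, against 59, 51.9 and 49.5 CPM without (log2 fold change 0.98, SE 0.0482, edgeR adjusted p = 9.25e-20). Stard4, which moves cholesterol between membranes, had 96.3, 96.3 and 98.6 CPM with Hoxb1 and 57.1, 49 and 48.3 CPM without (0.93, adjusted p = 2.96e-20). Neither gene had libraries that overlapped between the groups. Srebf2 had 592, 594 and 591 CPM with Hoxb1, against 473, 457 and 453 CPM without (0.37, adjusted p = 9.23e-14), a smaller but called difference. Srebf1 had 234, 244 and 232 CPM with Hoxb1, against 251, 249 and 235 CPM without (−0.04, adjusted p = 0.343), and its libraries overlapped.

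Of the fatty acid genes, Acly (ENSMUSG00000020917, mm10 chr11:100476353-100528000, minus strand) had the largest fold change of the 30 in this comparison, with 1311, 1325 and 1342 CPM with Hoxb1 against 613, 627 and 639 CPM without (log2 fold change 1.09, SE 0.0287, edgeR adjusted p = 3.49e-30). Fasn (ENSMUSG00000025153, mm10 chr11:120805940-120824178, minus strand), the fatty acid synthase, had 871, 822 and 829 CPM with Hoxb1 and 471, 501 and 488 CPM without (0.80, adjusted p = 2.04e-24). Both were higher in each library with Hoxb1. Scd1 had 311, 309 and 317 CPM against 275, 226 and 219 CPM without Hoxb1 (0.39, adjusted p = 0.00154), and Scd2 had 2207, 2179 and 2179.5 CPM against 1990.0, 1814 and 1822 CPM (0.23, adjusted p = 8.19e-08). Fads1, a desaturase of polyunsaturated fatty acids, was near the threshold (log2 fold change 0.085, adjusted p = 0.02), and its call was lost without replicate 2 or 3 of the untreated NPs (adjusted p = 0.0918 and 0.114), replicate 2 or 3 of the NPs with Hoxb1 (0.133 and 0.0597) or replicate 3 of the NPs with Hoxb1 and SAG (0.0514). Marker levels differed between these groups too: neuron markers summed to 1846 to 1946 CPM with Hoxb1 and 1337 to 1413 CPM without, mesenchyme markers to 928 to 957 and 414 to 442 CPM, and pluripotency markers to 123 to 148 and 242 to 277 CPM. Their part in the result was not tested.

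The second comparison asked the same of Hoxb1 in NPs that were given SAG. The direction was again mostly upward but the sizes were smaller: 22 of the 30 were higher and 1, Fads2, was lower (all genes tested: 21.4% higher and 21.9% lower), with a median log2 fold change of 0.30. Acly alone was called and at least 1.5-fold higher, against 4.76% of all genes, and the libraries of 25 of the 30 did not overlap (50.0% of all genes). Of the 27 genes called higher without SAG and the 23 called here, 23 were called in both, 22 of them higher in both, and 1 (Fads2) opposite, in comparisons that share no library. Over all genes, 4091 were called in both, 911 of them in opposite directions. Ventral progenitor markers summed to 551 to 565 CPM with Hoxb1 and SAG and 297 to 304 CPM with SAG alone, endoderm markers to 43.6 to 48.9 and 75.7 to 75.9 CPM, neural crest markers to 41.2 to 45.2 and 29.2 to 29.9 CPM, and neuron markers to 922 to 953 and 833 to 855 CPM. Their part in the result was not tested.

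Acly had 1399, 1337 and 1364 CPM with Hoxb1 and SAG, against 811, 786 and 786 CPM with SAG alone (log2 fold change 0.79, SE 0.0279, edgeR adjusted p = 1.1e-25). Lss was the second largest, with 211, 229.9 and 217 CPM against 153, 149.9 and 145 CPM with SAG alone (0.56, adjusted p = 1.52e-17). Both had no overlap between the sets of 3 libraries. Among the enzymes of the route, Mvd had 97.6, 100.0 and 96.9 CPM against 80.2, 72.6 and 70.7 CPM (0.41, adjusted p = 1.67e-10), and Idi1 had 9.66, 10.3 and 9.73 CPM against 8.32, 7.34 and 7.38 CPM with SAG alone (0.37, adjusted p = 0.00108). Hmgcs1 had 1147, 1084 and 1093 CPM with both, against 909.6, 832 and 853 CPM with SAG alone (0.36, adjusted p = 0.000473). From lanosterol to cholesterol, Msmo1, a sterol methyl oxidase, and Hsd17b7, a sterol ketone reductase, were 1.33-fold and 1.3-fold higher. Msmo1 had 227, 212 and 209 CPM with both against 170.1, 158 and 163 CPM with SAG alone, and Hsd17b7 59.7, 55.7 and 54.5 against 43.5, 42.1 and 46.1 CPM, without overlap. Sqle had 206, 197 and 207 CPM with both and 176, 159.9 and 167 CPM with SAG alone (0.29, adjusted p = 1.64e-09).

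The regulators and fatty acid genes were more mixed. On chromosome 11, which holds Acly, Acaca, Fasn and Srebf1, the median log2 fold change of all tested genes was −0.13, against 0.01 elsewhere. Insig1 had 178, 179.7 and 176 CPM with Hoxb1 and SAG against 149, 141 and 142 CPM with SAG alone (0.31, adjusted p = 5.2e-09), and Srebf2 had 619, 586 and 602 CPM against 525, 539 and 509 CPM (0.21, adjusted p = 1.58e-07). Srebf1 (log2 fold change 0.021), Fasn (−0.0058), Acaca (−0.04) and Scd1 (0.13) did not pass, and the libraries of Srebf1 and Fasn overlapped. Fasn had 583, 568 and 586 CPM with both and 598, 578 and 574 CPM with SAG alone. Scd1 had 410.0, 386 and 395 CPM with both and 378, 351 and 364 CPM with SAG alone, and Scd2 had 3064, 2851 and 2964 CPM against 2448, 2316 and 2336 CPM (0.33, adjusted p = 2.06e-11). Fads2, the first desaturase toward long polyunsaturated fatty acids, was 1.08-fold lower with Hoxb1 and SAG than with SAG alone (log2 fold change −0.11, adjusted p = 0.00611). Without untreated NP replicate 1, which enters the shared estimate of the spread, Scd1 was called (adjusted p = 0.000715). The call of Ebp was lost without replicate 1 of the NPs with Hoxb1 and SAG (0.0618), and Mvk was called without replicate 1 of the NPs with SAG alone (0.0156).

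**Figure D2:**
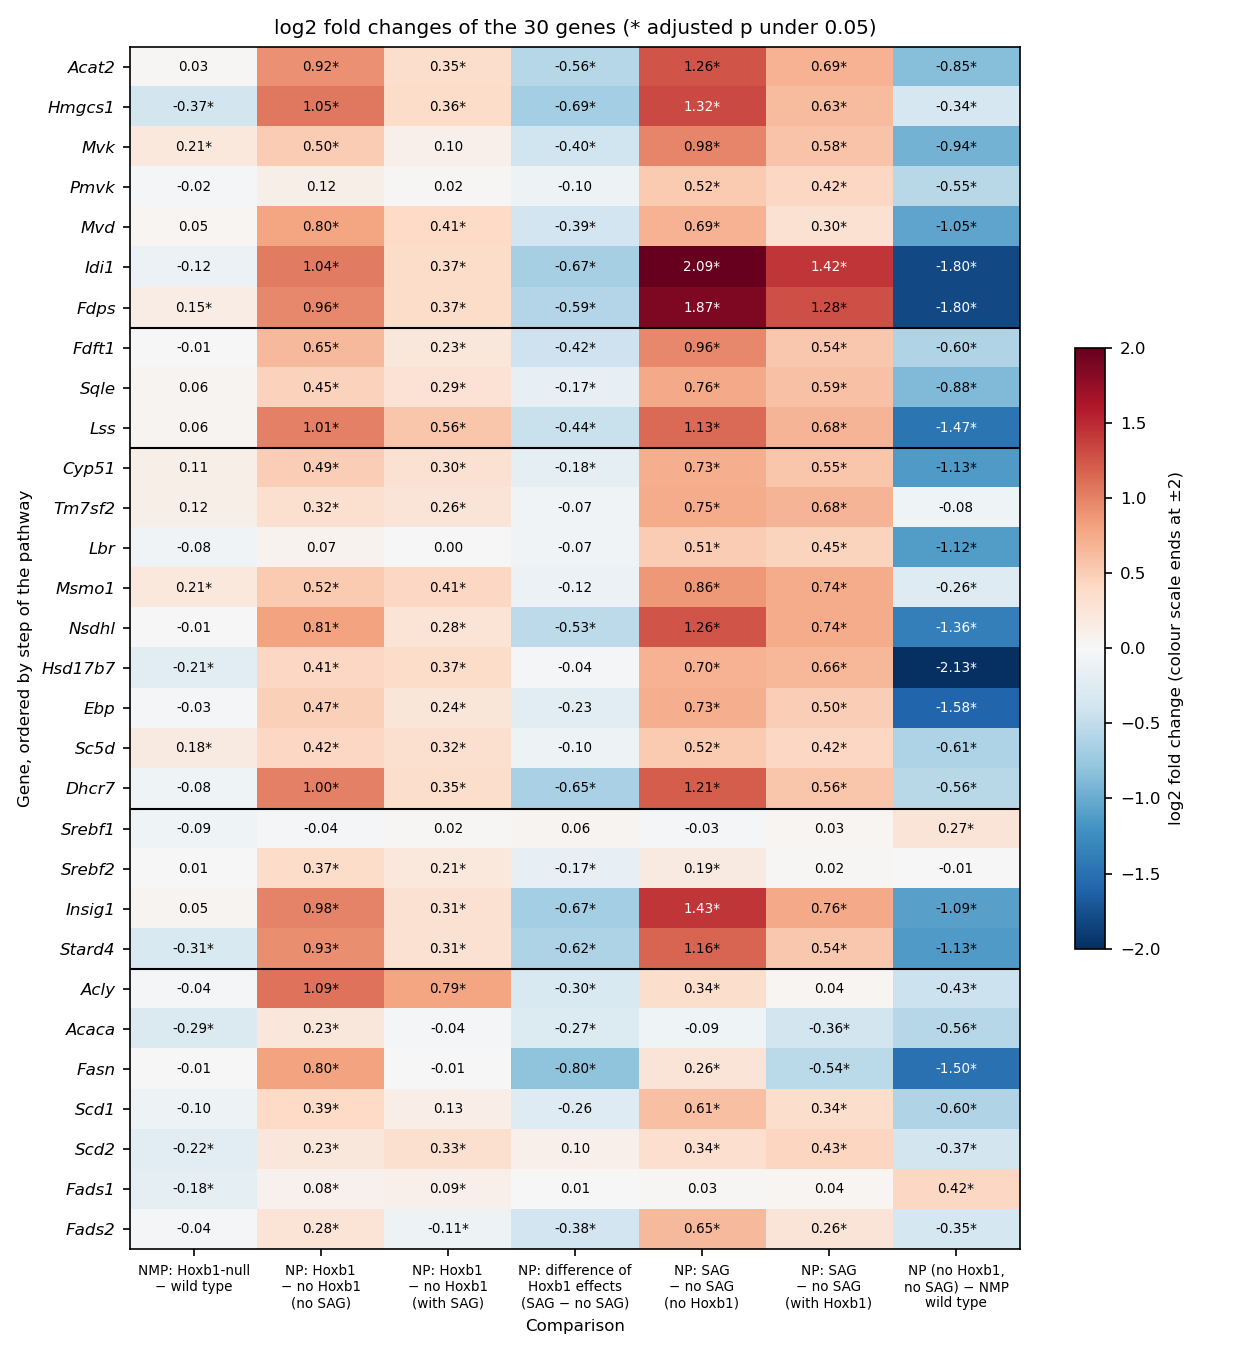
Log2 fold changes of the 30 members (rows, by role) in 7 comparisons (columns), coloured from lower (blue) to higher (red) and printed in each cell, with an asterisk where the adjusted p was under 0.05. The columns for SAG and for Hoxb1 without SAG are mostly red for the cholesterol enzymes, and the column of NPs against NMPs mostly blue.

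The third comparison tested whether the Hoxb1 effect differed with SAG and without it. It did for 19 of the 30 genes, and in 1 direction only: the effect was smaller, or turned, with SAG for all 19, and greater for 0 (edgeR; at an unadjusted p under 0.05, 21 and 1; DESeq2 called 19 and 0). Of all genes, 18.6% had a difference called below 0 and 16.8% above 0. The median difference of the 30 was −0.29 on the log2 scale. For 7 genes the difference was called and at least 1.5-fold (5.61% of all genes): Hmgcs1, Idi1, Fdps, Dhcr7, Insig1, Stard4 and Fasn. Among the 19 were 6 of the 7 enzymes up to farnesyl diphosphate, 3 of 3 from squalene to lanosterol, 3 of 9 from lanosterol to cholesterol, 3 of 4 regulators and carriers and 4 of 7 fatty acid genes. The Hoxb1 levels were 591 CPM with SAG and 323 CPM without, and the library number ranges differ between these pairs.

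Fasn had the largest difference, with a log2 effect of Hoxb1 of −0.0058 with SAG and 0.80 without (difference −0.80, SE 0.0427, edgeR adjusted p = 3.81e-19). The median difference over genes of chromosome 11, where Fasn, Acly, Acaca and Srebf1 lie, was −0.10, against 0.0076 elsewhere. Hmgcs1 had an effect of 0.36 with SAG and 1.05 without (difference −0.69, adjusted p = 8.55e-05), and Insig1 of 0.31 with SAG and 0.98 without (difference −0.67, adjusted p = 1.15e-11). The differences in Idi1 (−0.67), Dhcr7 (−0.65), Stard4 (−0.62), Fdps (−0.59), Acat2 (−0.56) and Nsdhl (−0.53) were called below 0. Smaller called differences were those of Srebf2 (−0.17, adjusted p = 0.00162) and Sqle (−0.17, adjusted p = 0.00829). The call of Idi1 was lost without untreated NP replicate 3 (adjusted p = 0.115) or replicate 1 of the NPs with Hoxb1 alone (0.0882), and that of Cyp51 without untreated NP replicate 2 (0.0654). Scd2 (0.10, adjusted p = 0.096), Scd1 (−0.26, adjusted p = 0.0701), Srebf1 (0.061) and Hsd17b7 (−0.04) were not called, though Scd1 was without untreated NP replicate 1 (adjusted p = 2.38e-08). The comparison shares all its libraries with the pair of Hoxb1 comparisons above, so its calls are no further support for them. The SAG comparisons below use the same libraries again. Untreated NPs thus enter the Hoxb1 comparison without SAG, this difference, the SAG comparison without Hoxb1 and the comparison with NMPs. A low level in those libraries alone would move all of these, so they are not independent of each other.

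**Figure D3:**
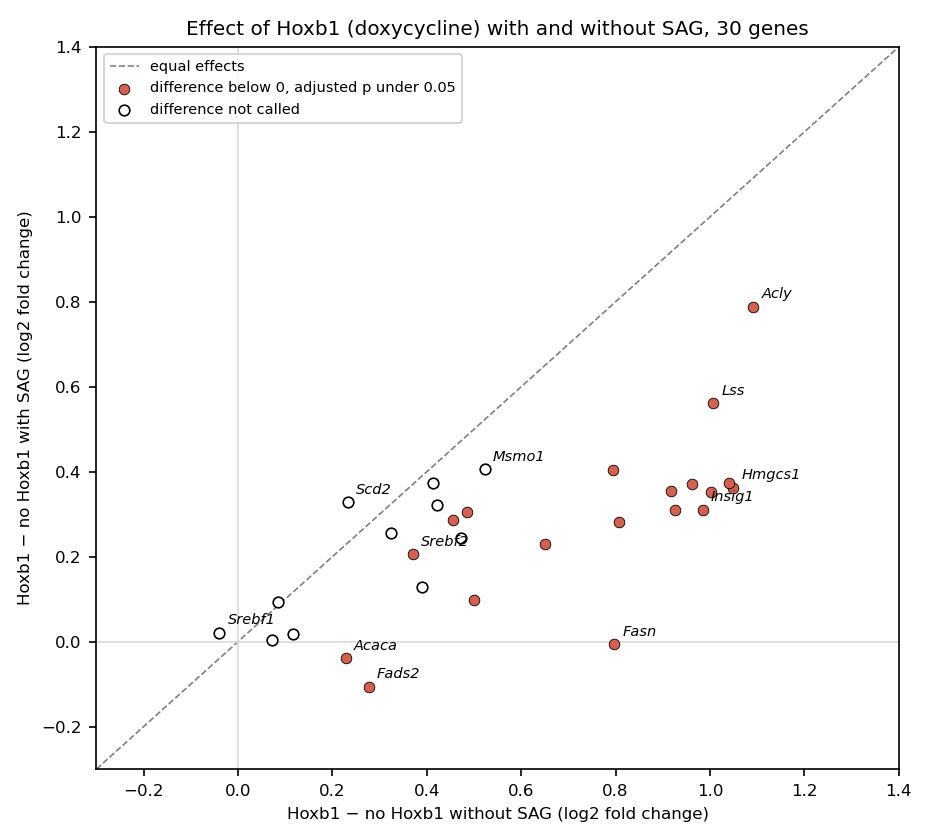
Log2 fold change with Hoxb1 in NPs given SAG (vertical axis) against that in NPs not given SAG (horizontal axis) for the 30 members, with the line of equal effects. Filled points are the 19 genes whose difference was called below 0, and all of them lie under that line.

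The fourth comparison set NPs given SAG against NPs not given SAG, both without Hoxb1. The cholesterol enzymes rose together: 27 of the 30 were higher and 0 lower in edgeR, in DESeq2 and at an unadjusted p under 0.05 in edgeR (all genes tested: 36.5% higher and 36.3% lower), with a median log2 fold change of 0.73 against 0.011 over all genes. All 7 enzymes up to farnesyl diphosphate (median 1.26), all 3 from squalene to lanosterol (0.96) and all 9 from lanosterol to cholesterol (0.73) were called higher, as were 3 of 4 regulators and carriers and 5 of 7 fatty acid genes (0.34). For 20 of the 30 the rise was called and at least 1.5-fold, against 15.2% of all genes, and the libraries of 28 of the 30 did not overlap, against 75.0% of all genes.

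Idi1 had the largest change, though from low counts (19 to 31 per library in untreated NPs). It had 7.68 ± 0.554 CPM with SAG against 1.8 ± 0.443 CPM in untreated NPs (log2 fold change 2.09, SE 0.157, edgeR adjusted p = 2.56e-15). Fdps had 109 ± 7.98 CPM with SAG and 29.7 ± 2.54 CPM without (1.87, adjusted p = 9.42e-20). Acat2 had 177, 162 and 168 CPM with SAG, against 76.1, 69.4 and 67.4 CPM without (1.26, adjusted p = 2.53e-27), and so these 3 enzymes of the upper route were at least 2.39-fold higher by their fits. Nsdhl, the dehydrogenase of sterol demethylation, had 74.8, 68.7 and 69.9 CPM with SAG and 32.8, 26.6 and 29.6 CPM without (1.26, adjusted p = 3.31e-22). Dhcr7 was 2.31-fold, Stard4 2.23-fold, Hmgcs1 2.5-fold and Sqle 1.69-fold higher, all without overlap of libraries.

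Among the regulators, Insig1 was higher with SAG, at 144 ± 3.88 CPM against 53.5 ± 4.96 CPM (log2 fold change 1.43, SE 0.0447, edgeR adjusted p = 1.9e-26). Srebf2 had a small called difference (0.19, adjusted p = 5.07e-07), and Srebf1 was not called (−0.028, adjusted p = 0.431). Of the fatty acid genes, Fads2 (0.65, adjusted p = 3.06e-20), Scd1 (0.61), Scd2 (0.34), Acly (0.34) and Fasn (0.26) were called higher, while Acaca (−0.094) and Fads1 (0.029) were not called. Mesenchyme markers summed to 2087 to 2125 CPM with SAG and 414 to 442 CPM without, neuron markers to 833 to 855 and 1337 to 1413 CPM, ventral progenitor markers to 297 to 304 and 65.4 to 74.4 CPM, and pluripotency markers to 364 to 397 and 242 to 277 CPM. Their part in the result was not tested. Genes on chromosome 8, which holds Msmo1 and Mvd, had a median log2 fold change of −0.23, against 0.024 on the other chromosomes.

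The next comparison set NPs with Hoxb1 given SAG against NPs with Hoxb1 not given it. The sterol enzymes were again higher, with 24 of the 30 called higher and 2, Acaca and Fasn, lower (all genes tested: 36.4% higher and 35.8% lower; median of the 30, 0.54). All 19 enzymes from acetyl-CoA to cholesterol were called higher. In all, 11 of the 30 were called and at least 1.5-fold higher, against 14.5% of all genes, and 27 of the 30 did not overlap, against 74.7% of all genes. Of the 27 and 26 genes called in the pair of SAG comparisons, which share no library, 25 were called in both, 24 of them higher in both and Fasn opposite. Over all genes, 9592 were called in both, 4514 of them higher in both, 4493 lower in both and 585 opposite.

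Idi1 had 9.88 ± 0.331 CPM with SAG against 3.66 ± 0.667 CPM without (1.42, adjusted p = 3.48e-13) and Fdps had 140.2 ± 3.56 against 57.5 ± 3.69 CPM (1.28, adjusted p = 1.78e-17), the largest of the 30. Msmo1 had 227, 212 and 209 CPM with SAG, against 128, 125 and 133 CPM without (0.74, adjusted p = 4.83e-21). Nsdhl had 89.3, 81.8 and 87.1 CPM with SAG and 49.5, 51.6 and 53.7 CPM without (0.74, adjusted p = 2.02e-16). Acat2 had 223, 210.4 and 214 CPM with SAG and 137, 130.0 and 132 CPM without (0.69, adjusted p = 5.79e-20), and Lss was 1.61-fold higher.

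The fatty acid genes parted here. Fasn was lower with SAG, at 579 ± 9.56 CPM against 841 ± 26.7 CPM (log2 fold change −0.54, SE 0.03, edgeR adjusted p = 1.65e-19), and Acaca was lower too (−0.36, adjusted p = 3.8e-09). Scd1 (0.34), Scd2 (0.43) and Fads2 (0.26) were called higher. Acly (0.042, adjusted p = 0.177), Srebf2 (0.022) and Srebf1 (0.033) had overlapping libraries and were not called, though with upper-quartile scaling Acly (0.088, adjusted p = 0.00323), Srebf2 (0.069, adjusted p = 0.0303) and Srebf1 (0.079, adjusted p = 0.0245) were called higher. Insig1 was higher (0.76, adjusted p = 3.03e-19), as was Hmgcs1 (0.63, adjusted p = 2.16e-06), and Sqle (0.59, adjusted p = 2.38e-18). On chromosome 11, which holds Acly, Acaca, Fasn and Srebf1, the median log2 fold change of all tested genes was −0.16, against 0.029 elsewhere. On chromosome 8, which holds Msmo1 and Mvd, it was −0.14, against 0.023 elsewhere. Mesenchyme markers summed to 2059 to 2259 CPM with SAG and 928 to 957 CPM without, neuron markers to 922 to 953 and 1846 to 1946 CPM, and pluripotency markers to 319 to 349.7 and 123 to 148 CPM. Their part in the result was not tested.

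The sixth comparison set Hoxb1-null NMPs against wild-type NMPs. Called members went both ways, as did all genes: 4 were called higher, 6 lower and 20 not called (all genes tested: 14.9% higher and 13.9% lower), with a median log2 fold change of −0.01. The libraries of 13 of the 30 did not overlap, against 41.8% of all genes. Leaving out single libraries changed the number called higher to between 1 and 5, with 1 left without wild-type replicate 2 and 2 without either wild-type replicate 3 or null replicate 2. Null replicate 3 stood apart, and without it 5 were higher and 7 lower. Of the 10 genes called both here and between Hoxb1 and no Hoxb1 in NPs without SAG, 6 had opposite and 4 equal signs, where over all genes 1318 of 2324 were opposite. Of the 8 called both here and for Hoxb1 with SAG, 5 were opposite, where over all genes 1254 of 2169 were.

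Hmgcs1 had 333, 348 and 336 CPM in null NMPs, against 441, 434 and 439.6 CPM in wild-type NMPs (log2 fold change −0.37, SE 0.0353, edgeR adjusted p = 5.35e-08), the largest change of the 30. Stard4 had 89.3, 96 and 87.2 CPM in null and 113, 113 and 111 CPM in wild-type NMPs (−0.31, adjusted p = 2.08e-05). Acaca had 55.9, 53.8 and 52.2 CPM in null and 65.8, 65.9 and 65.2 CPM in wild-type NMPs (−0.29, adjusted p = 0.000166). These 3 fell without overlap. Scd2 had 2066, 2207 and 1967 CPM in null against 2429, 2440.4 and 2391 CPM in wild-type NMPs (−0.22, adjusted p = 9.45e-05), Hsd17b7 102, 105 and 99.9 against 116, 119 and 120.2 CPM (−0.21) and Fads1 234, 254 and 234 against 275, 265 and 276 CPM (−0.18, adjusted p = 0.00197). The genes that rose were Mvk (49.6, 53.4 and 54 CPM against 45.3, 46.8 and 43.4 CPM, 0.21), Sc5d (64.3, 67.1 and 60.6 against 56.8, 56.6 and 56.1 CPM, 0.18), Msmo1 (0.21) and Fdps (0.15), and each of these 4 calls was lost when some single libraries were left out: wild-type replicate 2 for Fdps, Msmo1 and Sc5d, wild-type replicate 3 for Mvk and Sc5d, null replicate 1 for Msmo1, and null replicate 2 for Msmo1 and Sc5d. Without null replicate 3, Cyp51 was called higher (0.16, adjusted p = 5.27e-05), and without null replicate 1, Scd1 was called lower (−0.12, adjusted p = 0.0254).

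Members without a call in NMPs included the regulators and most fixed genes. Srebf1 had 186, 191 and 199 CPM in null and 209, 206 and 196 CPM in wild-type NMPs, and Srebf2 had 454, 456 and 493 against 473, 459 and 456 CPM. Insig1 had 112, 121 and 123 CPM in null and 112, 112 and 118 CPM in wild-type NMPs, Sqle 191, 192 and 189.6 against 185, 178 and 186 CPM, Fasn 1308, 1370.0 and 1430.2 against 1387, 1387 and 1353 CPM and Scd1 353, 349 and 320.1 against 358, 369 and 364 CPM. Adjusted p-values from edgeR were 0.106 for Srebf1, 0.846 for Srebf2, 0.435 for Insig1, 0.274 for Sqle, 0.874 for Fasn and 0.0746 for Scd1. Without null replicate 3, Srebf1 was called lower (−0.12, adjusted p = 0.00776). Pluripotency markers summed to 549.9 to 603 CPM in null and 412 to 439 CPM in wild-type NMPs, and their part in the result was not tested.

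The seventh comparison set untreated NPs against wild-type NMPs, across library ranges. The pathway was lower in NPs: 26 of the 30 were lower and 2, Srebf1 and Fads1, higher (all genes tested: 43.7% higher and 42.3% lower), with a median log2 fold change of −0.73 against 0.019 over all genes. In all, 18 of the 30 were called and at least 1.5-fold lower, against 28.7% of all genes, and the libraries of 28 of the 30 did not overlap, against 86.6% of all genes. Every enzyme from acetyl-CoA to cholesterol except Tm7sf2 was lower. Hsd17b7 had 28.3, 25.1 and 27.7 CPM in NPs against 116, 119 and 120.2 CPM in NMPs (log2 fold change −2.13, SE 0.053, edgeR adjusted p = 8.98e-37). Fdps had 28.3, 32.7 and 28.2 CPM in NPs against 104, 103 and 104 CPM in NMPs (−1.80, adjusted p = 1.27e-31), and Idi1 had 2.21, 1.87 and 1.33 CPM against 5.17, 6.87 and 6.62 CPM (−1.80, adjusted p = 8.3e-13). These 3 had the largest falls and no overlap. Lss had 72.6, 67.4 and 65.3 CPM in NPs against 191, 188 and 188 CPM in NMPs (−1.47), Ebp, the sterol isomerase, 10.3, 9.33 and 10.2 CPM against 29.7, 29.7 and 30 CPM (−1.58) and Nsdhl 32.8, 26.6 and 29.6 CPM against 74.5, 74.5 and 80.3 CPM (−1.36).

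Fasn had a log2 fold change of −1.50, Insig1 of −1.09, Sqle of −0.88 and Hmgcs1 of −0.34, all lower in NPs. Scd1 (−0.60) and Scd2 (−0.37) were lower by less. Srebf2 (log2 fold change −0.0054) and Tm7sf2 (−0.085) were not called and had overlapping libraries, while Srebf1 (0.27, adjusted p = 6.25e-09) and Fads1 (0.42, adjusted p = 1.19e-15) were higher in NPs. In NPs with Hoxb1 and SAG the summed level of the 30 exceeded that of wild-type NMPs, 10446 CPM against 8819 CPM, as values set side by side with no test. Neuron markers summed to 1337 to 1413 CPM in NPs and 169.6 to 177 CPM in NMPs, and pluripotency markers to 242 to 277 and 412 to 439 CPM. Their part in the result was not tested. The median of chromosome 11 was 0.40 in this comparison, against −0.016 elsewhere. Other chromosomes with members were shifted by less, in both directions. Medians were 0.22 on chromosome 8 (Msmo1 and Mvd) and 0.16 on chromosome 3 (Fdps and Pmvk). They were −0.13 on chromosome 19 (Scd1, Scd2, Fads1, Fads2 and Tm7sf2), −0.13 on chromosome 17 (Acat2) and −0.11 on chromosome 9 (Sc5d).

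Other lipid genes were taken from lists outside the 30, from which some of the called genes with the largest changes are named. Of 14 further sterol synthesis genes tested in NPs, 4 were higher and 0 lower with Hoxb1 and no SAG (edgeR; at an unadjusted p under 0.05, 5 and 0), 5 higher and 2 lower with Hoxb1 and SAG, 9 higher and 2 lower with SAG alone, and 9 higher and 4 lower with SAG in the presence of Hoxb1. Over all genes tested, 24.1% were higher and 22.1% lower with Hoxb1 and no SAG, 21.4% and 21.9% with Hoxb1 and SAG, 36.5% and 36.3% with SAG alone, and 36.4% and 35.8% with SAG in the presence of Hoxb1.

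Genes listed for the control of SREBP were more often lower than higher in some comparisons and not in others. The list also held genes of NF-Y and Sp1 and sterol carriers. Of 16 tested, 4 were higher and 8 lower with Hoxb1 and no SAG (median −0.08), and 3 higher and 9 lower with SAG and no Hoxb1 (median −0.15). The shares over all genes, here and for the lists that follow in this paragraph, were 24.1% higher and 22.1% lower with Hoxb1 and no SAG, and 36.5% higher and 36.3% lower with SAG and no Hoxb1. Mbtps2, the protease that makes the last cut of SREBP, was lower with SAG alone (log2 fold change −0.62, adjusted p = 1.15e-15). With Hoxb1 and no SAG, Gramd1b, a sterol carrier of the endoplasmic reticulum, was higher (0.66, adjusted p = 7.74e-12) and Pgrmc1, a sterol-binding membrane protein, lower (−0.58, adjusted p = 3.49e-16). Among 22 genes of fatty acid supply and elongation, 11 were higher and 5 lower with Hoxb1 and no SAG, and 13 higher and 6 lower with SAG and no Hoxb1. Aacs, which turns acetoacetate into acetoacetyl-CoA, had log2 fold changes of 0.95 with Hoxb1 and no SAG and of 1.32 with SAG and no Hoxb1. For sterol uptake and transport, 15 genes were tested, of which Hoxb1 without SAG left 8 higher and 4 lower, and SAG without Hoxb1 left 6 higher and 6 lower.

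Genes listed for LXR, the sterol-activated receptor, and for sterol efflux were split. Besides LXR targets, the list held the receptor genes Nr1h2 and Nr1h3 and several sterol hydroxylases. Of 11 tested, 2 were higher and 4 lower with Hoxb1 and no SAG (median −0.16), and 5 higher and 6 lower with SAG and no Hoxb1 (median −0.43), where all genes had the 24.1% higher and 22.1% lower, and the 36.5% higher and 36.3% lower, given above. Abca1, which exports cholesterol, was higher in null than in wild-type NMPs (1.03, adjusted p = 0.000507), and higher in untreated NPs than in wild-type NMPs (4.20, adjusted p = 2.71e-33). Among 19 fatty acid oxidation genes tested in NPs, 5 were higher and 4 lower with Hoxb1 and no SAG, and 9 higher and 6 lower with SAG and no Hoxb1. In null NMPs, 4 of 17 fatty acid oxidation genes were higher and 4 lower (median −0.06; all genes, 14.9% and 13.9%). Among those higher were Pdk4, a kinase that spares glucose for fatty acid use (0.96, adjusted p = 0.000455), and Cpt1a, the carnitine transferase of mitochondrial import (0.88, adjusted p = 7.03e-07). Phospholipid and triglyceride genes were split, with 6 of 17 higher and 5 lower with Hoxb1 and no SAG, and 5 higher and 8 lower with SAG and no Hoxb1.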

How the data were processed

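Polyadenylated RNA of 18 libraries was prepared with a strand-specific kit and 15 PCR cycles, per the labels' protocols. The authors deposited raw read counts per gene with gene coordinates; bcl2fastq 1.8.2, featureCounts 1.4.6 and build mm10 are named in the submitters' processing notes. The aligner, annotation release, strand setting and handling of multi-mapping reads are not stated in the sources used here.

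The 30 members and the other gene lists were chosen with earlier results of these data known. Of the 37224 genes, 35449 had a symbol and 1775 had none, and these stayed in the fits. Counts were fitted with edgeR 4.0.16 in R 4.3.3 (limma 3.58.1), after its filter on low counts, with TMM scaling and robust quasi-likelihood F-tests, p-values adjusted by Benjamini-Hochberg over all genes tested and called under 0.05. NMPs were fitted alone (6 libraries, 15032 genes, 4 residual degrees of freedom), NPs together (12, 16238, 8), and all 18 libraries (16761 genes, 12) for NPs against NMPs. The biological coefficient of variation was 3.82%, 2.91% and 3.23% in these fits. The SE is the absolute log2 fold change over the square root of F. CPM used TMM factors of all 18 libraries, and TPM the deposited exon length. Total counts ranged from 13301476 to 26974315 per library.

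The members named with values were 8 fixed genes and, in each comparison, up to 6 further called members with the largest changes and no overlap between libraries, and from each other list up to 2 called genes, some of which are not reported here. The scripts were tested on simulated counts. Alternatives were upper-quartile scaling, DESeq2 1.42.0, other filters on low counts (none, or 5 CPM in 3 libraries), other sets of libraries in the fit, a replicate block, and leaving out each library in turn.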

Additional observations from a re-analysis of the deposited data

Results flagged for a closer look

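The effect of Hoxb1 in NPs differed between NPs given SAG and NPs not given it for 19 of the 30 members, by the interaction test in edgeR over all genes (18.6% of all genes had a difference called below 0). The values are differences of log2 fold changes, with SAG minus without SAG, with 3 libraries in each of the 4 groups. Among the enzymes up to farnesyl diphosphate they were −0.56 for Acat2, −0.69 for Hmgcs1, −0.40 for Mvk, −0.39 for Mvd, −0.67 for Idi1 and −0.59 for Fdps. From squalene to cholesterol they were −0.42 for Fdft1, −0.17 for Sqle, −0.44 for Lss, −0.18 for Cyp51, −0.53 for Nsdhl and −0.65 for Dhcr7. Among the regulators and carriers they were −0.17 for Srebf2, −0.67 for Insig1 and −0.62 for Stard4, and among the fatty acid genes −0.30 for Acly, −0.27 for Acaca, −0.80 for Fasn and −0.38 for Fads2. The library number ranges and the Hoxb1 level (591 CPM with SAG, 323 CPM without) differ between the pairs, and their part in the difference was not tested.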

How the results depend on the processing

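No member changed direction as a call under any alternative run. DESeq2 gave the same member counts as edgeR in all 7 comparisons. With upper-quartile scaling, 28 members were higher with SAG in the presence of Hoxb1, against 24, and 15 of them at least 1.5-fold, against 11, while Fads1 lost its call for Hoxb1 without SAG (adjusted p = 0.105). Libraries of the same replicate number did not all deviate together in any comparison (correlations between −0.053 and 0.228, with not every pair over 0.1). The numbers were therefore not taken as pairs. For Hoxb1 with SAG, however, replicates 1 and 2 deviated partly together, each closest to its own number (0.228 and 0.213). Replicate 3 did not (0.0125). With the replicate block, called members were 4 higher and 6 lower (null NMPs), 27 and 0 (Hoxb1 without SAG), 23 and 1 (Hoxb1 with SAG), 0 and 20 (difference of Hoxb1 effects), 27 and 0 (SAG without Hoxb1), 24 and 2 (SAG with Hoxb1) and 2 and 26 (NPs against NMPs), with Scd1 gained for Hoxb1 with SAG (adjusted p = 0.0267) and in the difference (0.00447). Leaving out each library in turn gave 1 to 5 members higher in null NMPs and 6 to 7 lower, 26 to 27 higher with Hoxb1 without SAG, 21 to 23 with SAG, and 0 to 1 higher and 18 to 22 lower in the difference. In that difference, the 1 higher member was Scd2, without replicate 1 of the NPs with SAG alone or replicate 2 of those with Hoxb1 and SAG. The comparisons of SAG and of NPs with NMPs kept their member counts in each such fit. Leaving out replicate 1 of the NPs with Hoxb1 and SAG, which stood apart, gave 21 higher and 1 lower for Hoxb1 with SAG. With 3 libraries a group, small differences may not have been detectable at this depth; the cause of each change above was not tested.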
